A study of Mus musculus with 6 samples.

Results

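The genes described here encode ATP-dependent chromatin remodellers, their Smarc, Arid and Ino80 subunits, and the Brd bromodomain proteins. They were taken as the protein-coding rows of both deposited tables whose symbol starts with Smarc or Ino80, or with Chd, Arid or Brd and a digit, together with Bptf. The rule found 48 genes among the 14667 listed, and all 48 were in both tables. A processed pseudogene of Smarce1 also carries a matching name and was left out. The rule used symbols only and no measured value. It also took in Chd3os and Brd3os, small coding genes on the strand opposite to Chd3 and Brd3, which are no remodellers and are given apart from the others.

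RNA had been measured by poly(A) RNA-seq in NE-4C, a mouse neural stem cell line lacking p53, in 6 libraries. In every line, controls included, H3f3a, a gene for the histone variant H3.3, was knocked out and an HA-tagged H3.3 was stably expressed in its place. Cbfa2t2_KO (2 libraries) is also labelled as a knockout of Cbfa2t2, which encodes a transcriptional corepressor, and expressed wild-type H3.3. H3.3K27M (2 libraries) expressed H3.3 with lysine 27 changed to methionine, with no change of Cbfa2t2 in its labels. H3.3WT (2 libraries) expressed wild-type H3.3 with no such change and was the control of both lines. The sources used here do not say whether a line is 1 clone or whether its 2 libraries are 2 cultures. The p-values therefore reflect the spread between the libraries at hand, which may be technical. Values are FPKM, fragments scaled to transcript length and to the mapped total of the library, as the authors deposited them, and the read depth behind them is unknown. Bulk RNA cannot tell fewer cells of a type from less RNA per cell.

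Remodellers use ATP to slide, eject or exchange nucleosomes. SWI/SNF (BAF) complexes open chromatin at enhancers and promoters, and neural progenitors use a form called npBAF that is exchanged for a neuronal form, nBAF, when they leave the cell cycle. ISWI complexes space nucleosomes, CHD3 to CHD5 are the ATPases of the deacetylase complex NuRD, and INO80 acts on nucleosomes that carry the variant H2A.Z. Bromodomains bind acetylated lysines of histones. BRD2 and BRD3, proteins of the BET family, link acetylated chromatin to transcription, and BRD7, BRD9 and the ARID proteins define the SWI/SNF assemblies.

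Few of the genes moved. In Cbfa2t2_KO, 9 of 44 tested members fell and 1 rose against H3.3WT, and in H3.3K27M 5 fell and none rose. The INO80 subunit genes Ino80b and Ino80c fell in both lines, with Ino80b in Cbfa2t2_KO at the edge of the threshold. Brd2 and Chd3 fell in H3.3K27M. Chd1, Chd6, Chd9 and Ino80 fell and Chd1l rose in Cbfa2t2_KO. None of these genes was called when the 2 lines were compared directly. That comparison called 1 of 45 members, Smarca5, where 7.80% of all genes were called. A gene was called at an adjusted p below 0.05 in limma on log2(FPKM + 1), with p-values adjusted over every gene whose mean reached 1 FPKM, and log2 changes are given with their standard error. Over all tested genes, 34.6% were called in Cbfa2t2_KO (13.1% higher and 21.5% lower) and 26.2% in H3.3K27M (8.42% higher and 17.8% lower). The shares of called members, 22.7% in Cbfa2t2_KO and 11.4% in H3.3K27M, were below these, and 9 of 44 lower in Cbfa2t2_KO (20.5%) is close to the 21.5% of all genes. Of the 14 members that encode SWI/SNF subunits, limma called none in any comparison; at an unadjusted p below 0.05 there were 2 higher and 1 lower in each line. At that unadjusted threshold 3 members were higher and 13 lower in Cbfa2t2_KO (6.82% and 29.5% of 44), where 17.8% and 28.2% of all genes were. In H3.3K27M it was 4 higher and 12 lower (9.09% and 27.3%), where 13.9% and 26.6% of all genes were.

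**Figure D1:**
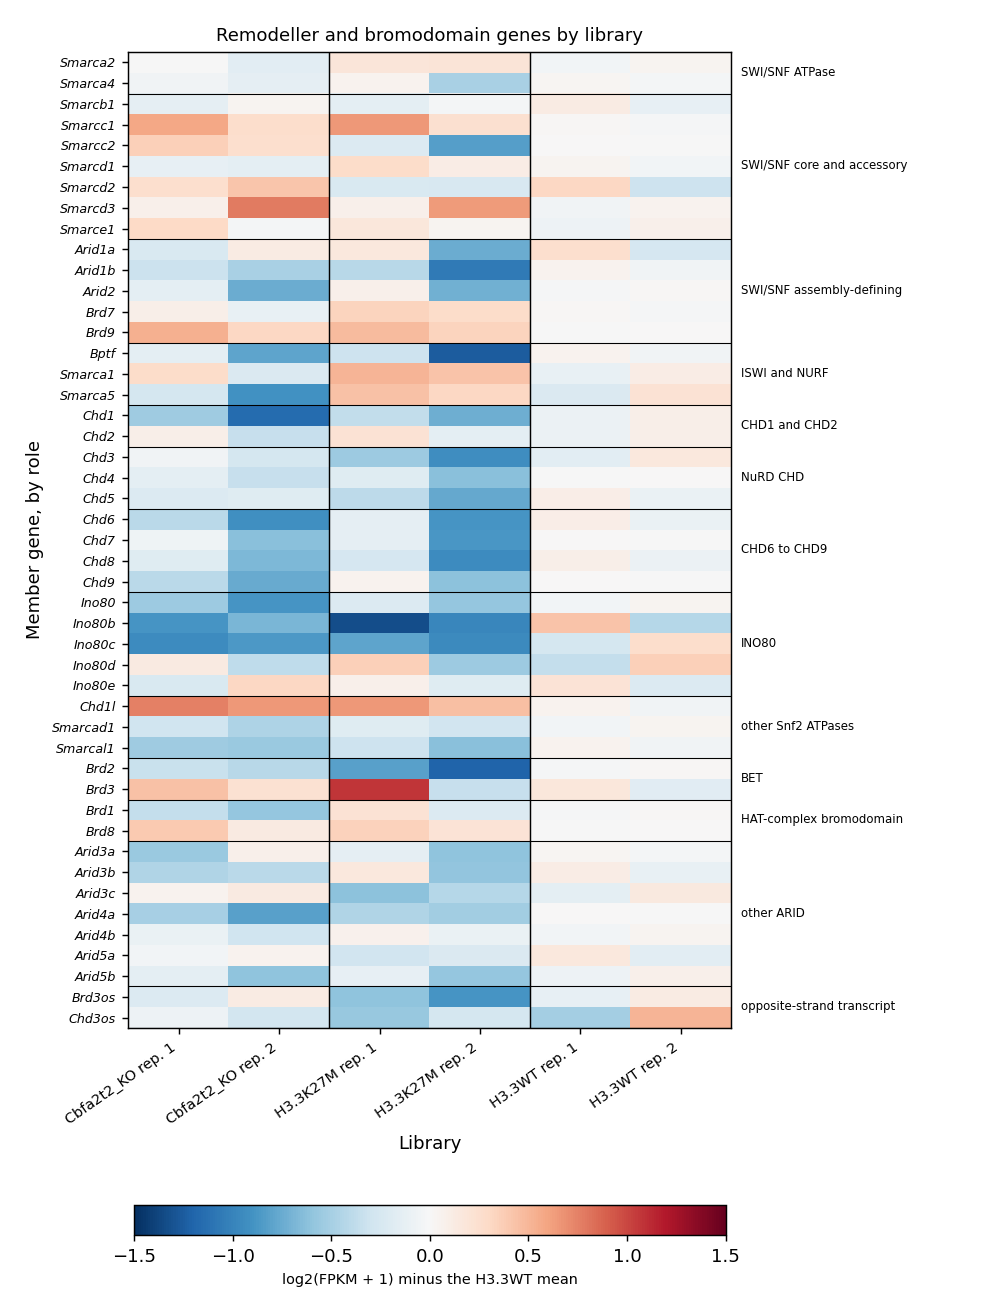
Each row is 1 of 47 of the 48 genes, ordered by role, and each column 1 library; colour shows log2(FPKM + 1) minus the mean of the 2 H3.3WT libraries. Ino80b and Ino80c are blue in all 4 libraries of Cbfa2t2_KO and H3.3K27M and Chd1l is red in them. Chd6 to Chd9, Bptf and Arid1b are lower in replicate 2 than in replicate 1 of both lines. Chd9 is slightly above the H3.3WT mean in H3.3K27M replicate 1.

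The libraries differed with transcript length, and many of these genes are long. The 45 members with a mean of at least 1 FPKM over the 6 libraries had a median transcript length of 5.42 kb (longest annotated transcript), against 3.295 kb over 10239 protein-coding genes. Replicate 2 of H3.3K27M was lower than replicate 1 in 40 of these 45 members and replicate 2 of Cbfa2t2_KO in 34, against 24 for the H3.3WT pair. These are 88.9%, 75.6% and 53.3%, where 59.2%, 55.9% and 45.4% of all 10239 coding genes were lower. Of the coding genes of 4 to 6 kb, 82.7%, 70.3% and 46.2% were lower, in the same order. Over all coding genes of more than 8 kb, the median difference of replicate 2 minus replicate 1 in log2(FPKM + 1) was -0.54 in H3.3K27M and -0.32 in Cbfa2t2_KO, against -0.019 in H3.3WT. For coding genes under 2 kb it was 0.20 in H3.3K27M and 0.12 in Cbfa2t2_KO, against 0.049 in H3.3WT. Long genes were thus low in replicate 2 of both lines and short ones were not. Across the members, the difference between replicates had a Spearman rho with length of -0.65 in H3.3K27M and -0.53 in Cbfa2t2_KO, against -0.088 in H3.3WT, over 45 genes that share the same libraries. Summed over the 48 members, FPKM came to 555 and 506 in Cbfa2t2_KO and 586 and 442 in H3.3K27M, against 624 and 593 in H3.3WT. Results are therefore also given without these libraries and with each library corrected for its trend on transcript length and GC content.

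**Figure D2:**
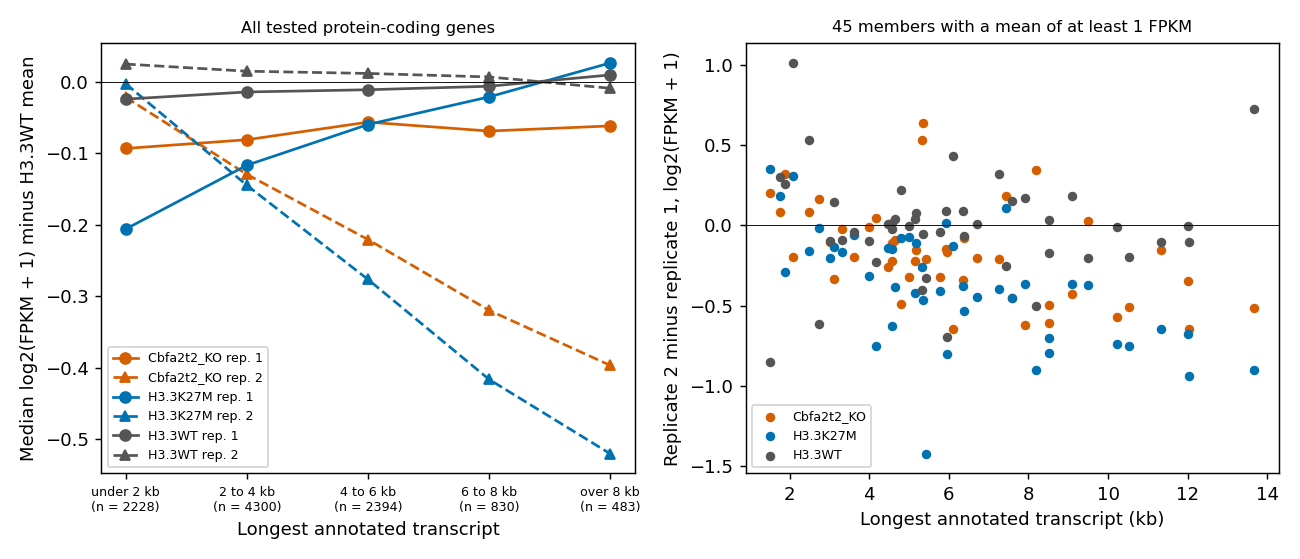
Left, the median over all tested coding genes of log2(FPKM + 1) minus the H3.3WT mean, by length of the longest annotated transcript, 1 line per library; right, replicate 2 minus replicate 1 for the 45 members against transcript length in kb. Replicate 2 of Cbfa2t2_KO and of H3.3K27M falls with length to -0.40 and -0.52 over 8 kb, while replicate 1 of both lines and the H3.3WT libraries end between -0.062 and 0.026.

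The label of a neural stem cell line was checked against markers. Of 12 neural stem and progenitor markers 10 were listed (Fabp7 and Sox1 were not), with summed levels of 136 to 141 FPKM in Cbfa2t2_KO and 159 to 173 in H3.3K27M, against 207 to 215 in H3.3WT. Single markers went both ways: of the 8 tested, Nes and Sox3 fell in both lines, Hes1 and Sox2 fell in Cbfa2t2_KO and Msi1 and Notch1 in H3.3K27M, while Vim and Prom1 rose in both. Vim had 27.3 and 26.5 FPKM in Cbfa2t2_KO and 34.6 and 41.8 in H3.3K27M, against 10.3 and 12.1 in H3.3WT (log2 change 1.19 ± 0.15, adjusted p = 0.0015 in Cbfa2t2_KO and log2 change 1.68 ± 0.18, adjusted p = 0.0013 in H3.3K27M). The 4 listed of 7 neuronal markers summed to 134 to 150 FPKM in Cbfa2t2_KO and 76.8 to 81.4 in H3.3K27M, against 76.5 to 77.6 in H3.3WT, and Dcx, Map2 and Snap25 were not listed. Most of this sum was Tubb3, with 123 and 139 FPKM in Cbfa2t2_KO and 68.3 and 71.6 in H3.3K27M, against 68.9 and 67.4 in H3.3WT, and Rbfox3 was lower than in H3.3WT in all 4 libraries of the lines, with a call in H3.3K27M (log2 change -0.74 ± 0.17, adjusted p = 0.015). The 3 listed of 6 astrocyte markers summed to 41.3 and 25.6 FPKM in Cbfa2t2_KO and 61.4 and 49.2 in H3.3K27M, against 33.3 and 26.2 in H3.3WT. Of them Aldh1l1 rose and Slc1a3 fell in both lines, and Gja1 rose in H3.3K27M (log2 change 1.38 ± 0.22, adjusted p = 0.0047). The astrocyte markers Gfap, Aqp4 and S100b and all 5 microglia and leukocyte markers were not listed. Oligodendrocyte markers summed to at most 3.93 FPKM and endothelial ones to at most 1.06 FPKM. Cbfa2t2 itself stood at 1.02 and 0.769 FPKM in the libraries labelled Cbfa2t2_KO, against 1.38 and 1.35 in H3.3WT, a difference that did not pass (log2 change -0.32 ± 0.16, adjusted p = 0.153). The edited part of the gene is not stated, so this FPKM does not check the label. H3f3a, labelled as knocked out in every line, was listed at 82.1 and 66.3 FPKM in Cbfa2t2_KO and 77.3 and 66.8 in H3.3K27M, against 131 and 181 in H3.3WT, and what part of this comes from the introduced H3.3 was not tested. Every gene in a table reached 0.5 FPKM in at least 1 of its libraries, so genes below that are not seen.

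The promoters of 5 members that the comparisons turn on are shown as the 250 bases before the RefSeq start site (GRCm38.p6, 5′ to 3′ on the gene's strand): Ino80b and Ino80, which encode INO80 subunits, Brd2, which fell in H3.3K27M, Chd1l, which rose in Cbfa2t2_KO, and Smarca5, which differed between the lines. Capitals mark 4 short motifs searched on both strands, the GC box GGGCGG, the CCAAT box CCAAT, the ETS core CCGGAA and the RUNX core TGTGGT. The last was included because the CBFA2T family is known for its fusion with the RUNX factor RUNX1 in leukaemia. A match describes letters and is not shown to be a binding site.
Ino80b, chr6:83125120-83125369, minus strand: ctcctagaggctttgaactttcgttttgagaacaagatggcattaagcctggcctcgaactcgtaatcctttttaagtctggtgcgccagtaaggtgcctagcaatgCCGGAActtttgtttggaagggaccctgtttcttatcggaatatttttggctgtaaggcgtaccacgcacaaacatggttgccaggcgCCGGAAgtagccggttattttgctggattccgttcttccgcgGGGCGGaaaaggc
Ino80, chr2:119477688-119477937, minus strand: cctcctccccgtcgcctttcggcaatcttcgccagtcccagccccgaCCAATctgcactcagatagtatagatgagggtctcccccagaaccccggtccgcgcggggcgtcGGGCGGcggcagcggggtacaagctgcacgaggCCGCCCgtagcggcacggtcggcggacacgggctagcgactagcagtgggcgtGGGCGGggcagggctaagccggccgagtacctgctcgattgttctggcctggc
Brd2, chr17:34122608-34122857, minus strand: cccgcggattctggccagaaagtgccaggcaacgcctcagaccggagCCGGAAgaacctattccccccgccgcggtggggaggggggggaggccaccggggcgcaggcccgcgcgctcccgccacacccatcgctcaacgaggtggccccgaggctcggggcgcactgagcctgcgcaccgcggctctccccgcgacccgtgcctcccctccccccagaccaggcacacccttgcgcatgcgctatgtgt
Chd1l, chr3:97610191-97610440, minus strand: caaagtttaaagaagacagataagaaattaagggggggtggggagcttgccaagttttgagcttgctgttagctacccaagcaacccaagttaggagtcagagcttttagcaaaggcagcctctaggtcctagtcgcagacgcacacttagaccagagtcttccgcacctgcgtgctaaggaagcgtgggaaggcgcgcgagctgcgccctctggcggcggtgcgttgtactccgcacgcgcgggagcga
Smarca5, chr8:80739460-80739709, minus strand: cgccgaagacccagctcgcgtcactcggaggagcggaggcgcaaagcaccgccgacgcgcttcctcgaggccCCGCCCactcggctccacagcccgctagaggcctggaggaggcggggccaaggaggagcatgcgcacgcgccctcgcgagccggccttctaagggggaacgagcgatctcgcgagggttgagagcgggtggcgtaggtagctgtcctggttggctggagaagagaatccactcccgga
The Ino80b window holds 2 ETS cores and 1 GC box, the Ino80 window 3 GC boxes and 1 CCAAT box, the Brd2 window 1 ETS core, the Smarca5 window 1 GC box and the Chd1l window no match. Their GC content ran from 50% for Ino80b to 73.6% for Brd2. The RefSeq start of Ino80b lies 312 bases from the start in GENCODE vM21, and those of the other 4 within 38 bases. Of the 35 members with a window in the table, 80.0% held a GC box and 28.6% an ETS core, while 32.7% and 12.0% of all 32817 windows did. The CCAAT box was in 25.7% of member windows and 33.8% of all, and the RUNX core in 5.71% and 14.0%. Each member has 1 window here, the one nearest its GENCODE start, and that of Brd3 lies 32264 bases away. The 32817 windows are all distinct RefSeq starts, can hold several per gene and were not limited to genes listed here. The 2 sets were thus not matched, and the differences in share were not tested. No motif of these 4 is in all 3 windows of genes that fell.

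Levels of the members spanned a wide range of FPKM. Chd4 was the highest in H3.3WT, at the 97.0th percentile of coding genes, followed by Smarcd1, Smarca4, Brd2 and Smarcc1. The lowest were Arid5a, Smarcd3 and Arid4b, which had a mean below 1 FPKM and entered no test. Smarca2 was also too low for the test of Cbfa2t2_KO and Arid3c for that of H3.3K27M, which leaves 44 tested members in each of these comparisons and 45 in the comparison of the lines. Among paralogues, Smarca4 was far above Smarca2 and Chd4 far above Chd3. Other pairs lay closer over the 6 libraries, with Smarcd1 at 2.48 to 5.40 times Smarcd2 and Brd2 at 1.25 to 5.86 times Brd3. Smarca4 and Smarca2 encode the alternative SWI/SNF ATPases BRG1 and BRM, and the ratio of Smarca4 to Smarca2 FPKM was 42.8 and 50.6 in Cbfa2t2_KO and 36.0 and 24.2 in H3.3K27M, against 47.9 and 40.4 in H3.3WT. Chd4 stood 15.4- and 15.8-fold above Chd3 in Cbfa2t2_KO and 22.5- and 23.2-fold in H3.3K27M, against 18.5- and 14.5-fold in H3.3WT. The ratios of Smarca4 to Smarca2 and of Chd4 to Chd3 were high in every library.

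**Figure D3:**
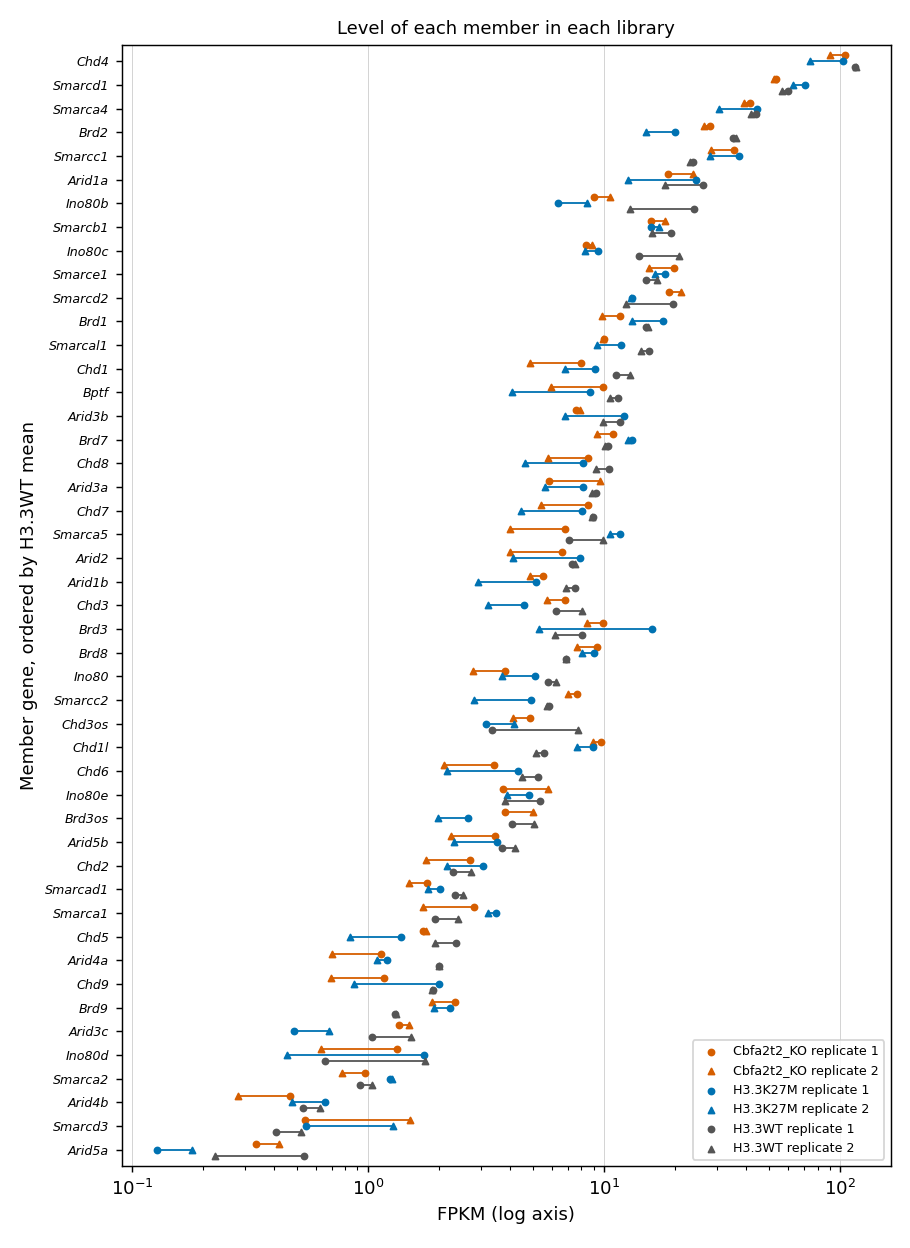
FPKM of 47 of the 48 members on a log axis, ordered by its H3.3WT mean, with both libraries of a group joined by a line (circle replicate 1, triangle replicate 2). Levels run from Arid5a (0.127 FPKM in H3.3K27M replicate 1) to Chd4 (116 FPKM in H3.3WT replicate 2), and for most long genes the triangles of Cbfa2t2_KO and H3.3K27M lie left of the circles.

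The SWI/SNF genes showed no call in either line, though some passed under the alternatives given with them. Smarca4 had 41.4 and 39.1 FPKM in Cbfa2t2_KO and 44.5 and 30.5 in H3.3K27M, against 44.01 and 41.96 in H3.3WT. The Cbfa2t2_KO values were just below both controls and the H3.3K27M values lay on either side of them (log2 change -0.09 ± 0.13, adjusted p = 0.612 for Cbfa2t2_KO and log2 change -0.22 ± 0.20, adjusted p = 0.457 for H3.3K27M). Smarca2 stayed near 1 FPKM, with 0.966 and 0.773 in Cbfa2t2_KO and 1.24 and 1.26 in H3.3K27M, against 0.9196 and 1.04 in H3.3WT, and its test in H3.3K27M did not pass (log2 change 0.19 ± 0.17, adjusted p = 0.436).

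Smarcc1 and Smarcc2 encode the paired scaffold subunits BAF155 and BAF170, and the first dominates in stem cells. Smarcc1 had 35.5 and 28.3 FPKM in Cbfa2t2_KO and 37.3 and 27.9 in H3.3K27M, against 23.7 and 23.04 in H3.3WT. All 4 libraries of the lines were above both H3.3WT libraries, and neither difference passed (log2 change 0.42 ± 0.16, adjusted p = 0.068 for Cbfa2t2_KO, log2 change 0.45 ± 0.19, adjusted p = 0.107 for H3.3K27M). Both passed with median-of-ratios scaling and after correction for length and GC content, and over 11 alternatives the adjusted p ranged from 0.024 to 0.302 in Cbfa2t2_KO and 0.025 to 0.329 in H3.3K27M. Smarcc2 had 7.69 and 7.05 FPKM in Cbfa2t2_KO and 4.89 and 2.81 in H3.3K27M, against 5.84 and 5.73 in H3.3WT. It was above H3.3WT in both Cbfa2t2_KO libraries and below it in both of H3.3K27M, without passing in either (log2 change 0.30 ± 0.16, adjusted p = 0.185 for Cbfa2t2_KO, log2 change -0.52 ± 0.24, adjusted p = 0.137 for H3.3K27M). The ratio of Smarcc1 to Smarcc2 was 4.62 and 4.01 in Cbfa2t2_KO and 7.63 and 9.93 in H3.3K27M, against 4.06 and 4.02 in H3.3WT. The H3.3K27M libraries had the highest ratios; no test was made of the ratio.

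The Smarcd genes encode the BAF60 subunits that bind transcription factors. Smarcd1 had 53.4 and 52.4 FPKM in Cbfa2t2_KO and 70.9 and 63.1 in H3.3K27M, against 60.2 and 56.4 in H3.3WT, a little below the controls in the first line and above them in the second (log2 change -0.14 ± 0.13, adjusted p = 0.4403 in Cbfa2t2_KO and log2 change 0.20 ± 0.16, adjusted p = 0.399 in H3.3K27M). After the length and GC correction Smarcd1 was called higher in H3.3K27M than in H3.3WT and than in Cbfa2t2_KO. Smarcd2 had 18.8 and 21.2 FPKM in Cbfa2t2_KO and 13.1 and 12.96 in H3.3K27M, against 19.5 and 12.4 in H3.3WT, where the 2 controls spanned the values of H3.3K27M (log2 change 0.34 ± 0.21, adjusted p = 0.246 in Cbfa2t2_KO and log2 change -0.24 ± 0.22, adjusted p = 0.455 in H3.3K27M). Smarcd3, the form found in heart and neurons, was low, with 0.537 and 1.502 FPKM in Cbfa2t2_KO and 0.546 and 1.27 in H3.3K27M, against 0.408 and 0.516 in H3.3WT. Of its exonic bases, 2466 of 5120 also lie in exons of Chpf2 on the opposite strand, and the libraries' strand is not stated, so its level is uncertain. The core subunit genes Smarcb1 and Smarce1 were not called, with log2 changes between -0.087 and 0.13, and Smarce1 may share reads with its pseudogene.

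Among the subunits that define the assemblies, ARID1A and ARID1B mark canonical BAF, ARID2 and BRD7 the PBAF form and BRD9 the non-canonical form. Arid1a had 18.5 and 23.8 FPKM in Cbfa2t2_KO and 24.4 and 12.6 in H3.3K27M, against 26.2 and 18.2 in H3.3WT, with overlapping groups in both comparisons (log2 change -0.05 ± 0.20, adjusted p = 0.869 in Cbfa2t2_KO and log2 change -0.30 ± 0.30, adjusted p = 0.484 in H3.3K27M). Arid1b had 5.52 and 4.86 FPKM in Cbfa2t2_KO and 5.14 and 2.92 in H3.3K27M, against 7.49 and 6.89 in H3.3WT. All 4 libraries of the lines were below the controls, and the lowest was H3.3K27M replicate 2 (log2 change -0.40 ± 0.17, adjusted p = 0.098 for Cbfa2t2_KO, log2 change -0.74 ± 0.24, adjusted p = 0.053 for H3.3K27M). Arid1b passed as lower in H3.3K27M with a minimum mean of 5 FPKM, in the fit of all 6 libraries and with eBayes without trend. Arid2 had 6.61 and 3.996 FPKM in Cbfa2t2_KO and 7.85 and 4.11 in H3.3K27M, against 7.29 and 7.48 in H3.3WT, low in replicate 2 of both lines and near the controls in replicate 1 (log2 change -0.44 ± 0.22, adjusted p = 0.155 in Cbfa2t2_KO and log2 change -0.32 ± 0.26, adjusted p = 0.392 in H3.3K27M). Brd7 had 10.9 and 9.34 FPKM in Cbfa2t2_KO and 13.1 and 12.6 in H3.3K27M, against 10.4 and 10.03 in H3.3WT, and both H3.3K27M values exceeded all others (log2 change -0.01 ± 0.16, adjusted p = 0.953 in Cbfa2t2_KO and log2 change 0.31 ± 0.17, adjusted p = 0.205 in H3.3K27M). Brd9 had 2.34 and 1.85 FPKM in Cbfa2t2_KO and 2.21 and 1.902 in H3.3K27M, against 1.297 and 1.32 in H3.3WT. Its groups did not overlap in either comparison and it did not pass (log2 change 0.42 ± 0.17, adjusted p = 0.088 in Cbfa2t2_KO and log2 change 0.40 ± 0.18, adjusted p = 0.121 in H3.3K27M), whereas it passed as higher in Cbfa2t2_KO with median-of-ratios scaling and after the length and GC correction.

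SWI/SNF subunits outside the name rule were read from a list of 16, of which 14 were in the tables and 13 were tested. In Cbfa2t2_KO 3 rose and 4 fell (median log2 change -0.27, against -0.11 over all genes), where 13.1% of all genes rose and 21.5% fell. In H3.3K27M 3 rose and 2 fell (median -0.25, against -0.12 over all genes), where 8.42% of all genes rose and 17.8% fell. With 1 library left out, 2 rose and 0 to 1 fell in Cbfa2t2_KO, while 1 to 3 rose and 0 to 4 fell in H3.3K27M. The 3 that rose were the same in both lines, Actl6a, Phf10 and Ss18, and all 3 belong to the 4 subunits that mark npBAF. Phf10 (BAF45A) had 34.7 and 30.3 FPKM in Cbfa2t2_KO and 35.3 and 37.4 in H3.3K27M, against 18.3 and 17.6 in H3.3WT (log2 change 0.82 ± 0.14, adjusted p = 0.0047 in Cbfa2t2_KO and log2 change 0.98 ± 0.16, adjusted p = 0.0048 in H3.3K27M). It passed in all 11 alternatives of each comparison. Ss18 had 40.3 and 32.5 FPKM in Cbfa2t2_KO and 41.8 and 34.5 in H3.3K27M, against 20.2 and 20.2 in H3.3WT (log2 change 0.81 ± 0.15, adjusted p = 0.0062 in Cbfa2t2_KO and log2 change 0.88 ± 0.17, adjusted p = 0.0085 in H3.3K27M), and passed in 11 of 11 alternatives in Cbfa2t2_KO and 9 of 11 in H3.3K27M. Actl6a (BAF53A) had 28.5 and 28.3 FPKM in Cbfa2t2_KO and 30.6 and 32.8 in H3.3K27M, against 19.5 and 21.6 in H3.3WT (log2 change 0.45 ± 0.14, adjusted p = 0.039 in Cbfa2t2_KO and log2 change 0.60 ± 0.16, adjusted p = 0.029 in H3.3K27M), and passed in 6 of 11 in Cbfa2t2_KO and 8 of 11 in H3.3K27M. For these 3 genes no library of the lines overlapped the controls. The npBAF count fell to 2 when any 1 library was left out of the Cbfa2t2_KO comparison, and in H3.3K27M to 2 without H3.3K27M replicate 2 and to 1 without either H3.3WT replicate, with medians between 0.55 and 0.78.

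The fourth npBAF subunit gene, Dpf2, was not called, with 24.3 and 28.2 FPKM in Cbfa2t2_KO and 21.7 and 19.3 in H3.3K27M, against 25.8 and 24.4 in H3.3WT. Of the 4 neuronal counterparts, Actl6b and Dpf3 were not listed, Ss18l1 was too low for the test, and Dpf1 fell. Dpf1 had 1.795 and 2.104 FPKM in Cbfa2t2_KO and 1.67 and 1.54 in H3.3K27M, against 4.05 and 3.18 in H3.3WT (log2 change -0.64 ± 0.18, adjusted p = 0.0297 in Cbfa2t2_KO and log2 change -0.82 ± 0.19, adjusted p = 0.017 in H3.3K27M), and passed in 6 of 10 alternatives in Cbfa2t2_KO and 7 of 10 in H3.3K27M. As given above, markers went both ways. Of the progenitor markers, Nes and Sox3 were lower and Vim and Prom1 higher in both lines. Sox2 and Hes1 were lower in Cbfa2t2_KO, and Msi1 and Notch1 in H3.3K27M. The astrocyte marker Aldh1l1 was higher and Slc1a3 lower in both lines, and Gja1 was higher in H3.3K27M. The neuronal marker Tubb3 was higher in Cbfa2t2_KO, while Rbfox3 was below H3.3WT in both lines. The part of these markers in the differences was not tested. Both lines were set against the same 2 H3.3WT libraries, so rises or falls seen in both do not come from separate controls.

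**Figure D4:**
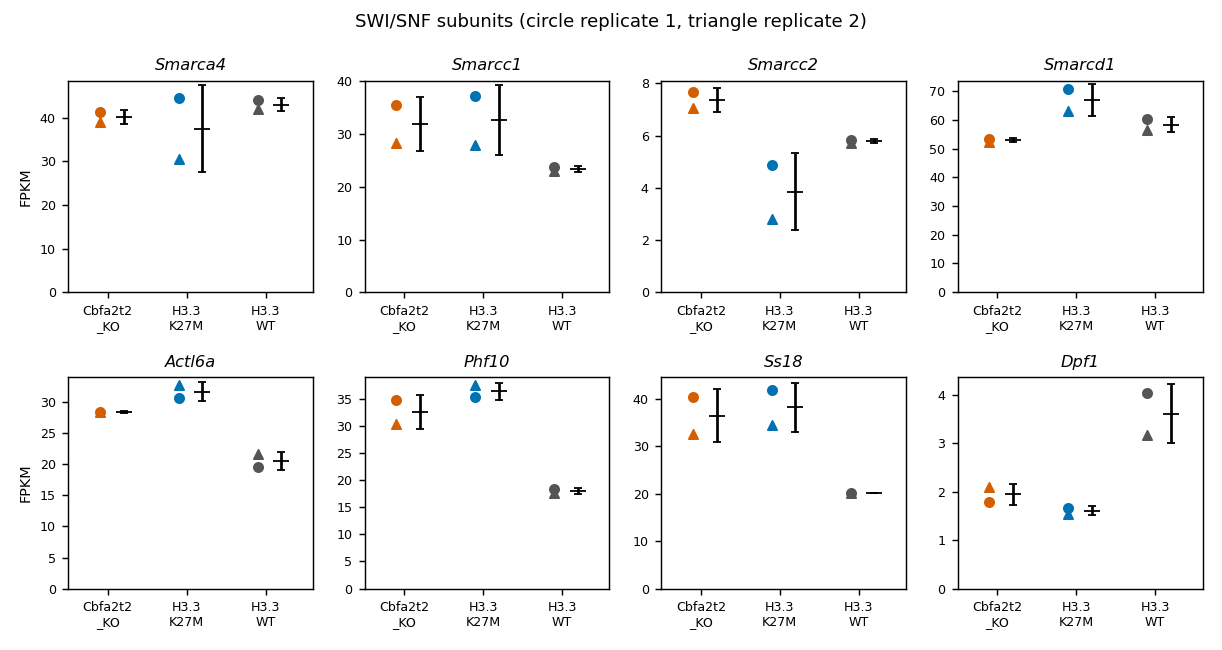
FPKM of 8 SWI/SNF subunit genes in each library (points), with the mean and SD of the 2 libraries beside them. Actl6a, Phf10 and Ss18 are higher in all libraries of Cbfa2t2_KO and H3.3K27M than in H3.3WT and Dpf1 is lower, while Smarca4 and Smarcd1 differ little and Smarcc2 is lowest in H3.3K27M.

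Among the members, the INO80 genes held the called falls that both lines had in common. INO80B and INO80C are counterparts of yeast Ies2 and Ies6, subunits that the complex needs for remodelling. Ino80b (GRCm38 chr6:83121765-83125431) had 9.03 and 10.5 FPKM in Cbfa2t2_KO and 6.39 and 8.41 in H3.3K27M, against 23.95 and 12.8 in H3.3WT. No library of the lines reached the lower control, but the 2 controls differed from each other by more than the fitted Cbfa2t2_KO change (log2 change -0.79 ± 0.26, adjusted p = 0.049 for Cbfa2t2_KO and log2 change -1.16 ± 0.28, adjusted p = 0.019 for H3.3K27M). The call in Cbfa2t2_KO was lost with a pseudocount of 0.1, without the FPKM filter and with median-of-ratios scaling. It was also lost in the fit of all 6 libraries and with eBayes without trend. In H3.3K27M the call of Ino80b held under each of these. Without H3.3WT replicate 1, the higher control, the log2 change was -0.36 in Cbfa2t2_KO (adjusted p = 0.220), while it was -0.73 in H3.3K27M with an adjusted p of 0.120. Its calls were also lost without either replicate of Cbfa2t2_KO (adjusted p = 0.179 without replicate 1 and 0.133 without replicate 2) or of H3.3K27M (0.0815 and 0.0582), with log2 changes of -0.69 or lower. Ino80c had 8.33 and 8.902 FPKM in Cbfa2t2_KO and 9.37 and 8.29 in H3.3K27M, against 13.97 and 20.7 in H3.3WT. It was below both controls in all 4 libraries of the lines (log2 change -0.91 ± 0.20, adjusted p = 0.012 for Cbfa2t2_KO and log2 change -0.87 ± 0.21, adjusted p = 0.0202 for H3.3K27M) and passed in 8 of 11 alternatives in Cbfa2t2_KO and in 9 of 11 in H3.3K27M. Without H3.3WT replicate 2, the higher control, the log2 change was -0.64 in Cbfa2t2_KO (adjusted p = 0.059), while it was -0.61 in H3.3K27M with an adjusted p of 0.159. The call in Cbfa2t2_KO was also lost without its replicate 1 (adjusted p = 0.056) or 2 (0.061), and that in H3.3K27M without its replicate 2 (0.095). The longest transcripts of Ino80b and Ino80c have 1503 and 2498 nucleotides, shorter than the median of all coding genes.

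The ATPase gene Ino80 had 3.81 and 2.79 FPKM in Cbfa2t2_KO and 5.09 and 3.68 in H3.3K27M, against 5.795 and 6.24 in H3.3WT. It fell in Cbfa2t2_KO (log2 change -0.72 ± 0.19, adjusted p = 0.022) and did not pass in H3.3K27M (log2 change -0.39 ± 0.20, adjusted p = 0.182), and without Cbfa2t2_KO replicate 2 its change was -0.55 (adjusted p = 0.118). The call was also lost without H3.3WT replicate 1 (adjusted p = 0.055) or 2 (0.096). Ino80d and Ino80e were not called in either line, with log2 changes between -0.13 and 0.041, and 1103 of the 7644 exonic bases of Ino80e also lie in exons of Doc2a on the opposite strand. All of the 17 partners listed for INO80, SRCAP and TIP60 complexes were tested. In Cbfa2t2_KO 2 rose and 5 fell (median -0.19), where 13.1% of all genes rose and 21.5% fell. In H3.3K27M 3 rose and 2 fell (median -0.11), where 8.42% of all genes rose and 17.8% fell. With 1 library left out, 0 to 1 rose and 1 to 3 fell in Cbfa2t2_KO, while in H3.3K27M 0 to 3 rose and 0 to 2 fell, none of either without H3.3WT replicate 1. The largest among the called changes of both was that of Actr5, which encodes ARP5, the actin-related partner of INO80C. Actr5 had 7.46 and 8.65 FPKM in Cbfa2t2_KO and 9.92 and 6.25 in H3.3K27M, against 19.7 and 13.4 in H3.3WT, and fell in both (log2 change -0.93 ± 0.20, adjusted p = 0.011 in Cbfa2t2_KO and log2 change -0.96 ± 0.26, adjusted p = 0.027 in H3.3K27M). Its call was lost in Cbfa2t2_KO without replicate 1 (adjusted p = 0.0606) and in H3.3K27M without its replicate 2 (0.141) or H3.3WT replicate 1 (0.175). Between the lines 1 of the 17 was called, Uchl5, which encodes a deubiquitinase bound to INO80, with 5.68 and 6.32 FPKM in H3.3K27M, against 2.87 and 2.24 in Cbfa2t2_KO, and 2.62 and 3.24 in H3.3WT (log2 change 0.98 ± 0.19, adjusted p = 0.023 between the lines). This call was lost without Cbfa2t2_KO replicate 1 (adjusted p = 0.0569) or 2 (0.187) and without H3.3K27M replicate 2 (0.0876).

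Among the CHD genes, Chd1, Chd6 and Chd9 fell and Chd1l rose in Cbfa2t2_KO, Chd3 fell in H3.3K27M, and the others were not called. No CHD gene was called between the lines. CHD1 binds H3K4me3 and acts at transcribed genes. Chd1 had 7.97 and 4.83 FPKM in Cbfa2t2_KO and 9.099 and 6.83 in H3.3K27M, against 11.3 and 12.8 in H3.3WT. All 4 libraries of the lines were below both controls, the call was made in Cbfa2t2_KO (log2 change -0.85 ± 0.22, adjusted p = 0.023) and not in H3.3K27M (log2 change -0.55 ± 0.20, adjusted p = 0.072), and the 2 lines were not called apart (log2 change 0.30 ± 0.24, adjusted p = 0.433). After correction for length and GC content Chd1 was called lower in both lines. Without Cbfa2t2_KO replicate 2 the log2 change of Chd1 was -0.54 (adjusted p = 0.117), and without H3.3WT replicate 2 it was -0.76 (adjusted p = 0.096). Chd2, which shares 2628 of 14300 exonic bases with 1810026B05Rik on the same strand, was not called, with log2 changes of -0.13 and 0.035.

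CHD6 to CHD9 form a subfamily, in which CHD7 and CHD8 are known from neurodevelopmental disorders. Chd6 had 3.41 and 2.098 FPKM in Cbfa2t2_KO and 4.33 and 2.16 in H3.3K27M, against 5.26 and 4.47 in H3.3WT. Chd9 had 1.16 and 0.697 FPKM in Cbfa2t2_KO and 1.99 and 0.871 in H3.3K27M, against 1.87 and 1.87 in H3.3WT. Both fell in Cbfa2t2_KO (log2 change -0.66 ± 0.22, adjusted p = 0.046 for Chd6, log2 change -0.58 ± 0.18, adjusted p = 0.038 for Chd9) and neither passed in H3.3K27M. Their longest transcripts have 10515 and 12008 nucleotides, replicate 2 was the lower one in both lines, and without Cbfa2t2_KO replicate 2 the log2 change was -0.41 for each (adjusted p = 0.225 for Chd6 and 0.177 for Chd9). Without an H3.3WT replicate neither passed (adjusted p between 0.0905 and 0.161). After correction for length and GC content both remained called in Cbfa2t2_KO. Chd7 and Chd8 did not pass, with log2 changes of -0.35 and -0.43 in Cbfa2t2_KO and -0.50 and -0.60 in H3.3K27M.

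Among the NuRD ATPases, Chd3 had 6.79 and 5.74 FPKM in Cbfa2t2_KO and 4.55 and 3.22 in H3.3K27M, against 6.23 and 8.02 in H3.3WT. It fell in H3.3K27M (log2 change -0.74 ± 0.22, adjusted p = 0.039) and overlapped the controls in Cbfa2t2_KO (log2 change -0.16 ± 0.19, adjusted p = 0.544), and the direct comparison of the lines did not pass (log2 change -0.58 ± 0.21, adjusted p = 0.1099). Its call in H3.3K27M was lost without H3.3K27M replicate 2 (log2 change -0.54, adjusted p = 0.159), without H3.3WT replicate 1 (0.081) or 2 (0.224), and after the length and GC correction (log2 change -0.42, adjusted p = 0.127). Chd4, the most abundant member, had 105 and 90.6 FPKM in Cbfa2t2_KO and 102 and 74.7 in H3.3K27M, against 115 and 116 in H3.3WT, lower in all 4 libraries and without a call (log2 change -0.25 ± 0.14, adjusted p = 0.195 in Cbfa2t2_KO and log2 change -0.40 ± 0.19, adjusted p = 0.154 in H3.3K27M). Chd5, a neuronal family member, was low, with 1.71 and 1.76 FPKM in Cbfa2t2_KO and 1.38 and 0.837 in H3.3K27M, against 2.36 and 1.91 in H3.3WT (log2 change -0.19 ± 0.17, adjusted p = 0.404 in Cbfa2t2_KO and log2 change -0.58 ± 0.20, adjusted p = 0.063 in H3.3K27M). Of all tested genes, 13.1% rose and 21.5% fell in Cbfa2t2_KO, and 8.42% rose and 17.8% fell in H3.3K27M. Of the 12 NuRD partner genes, 2 rose and 1 fell in each line (medians 0.017 in Cbfa2t2_KO and 0.14 in H3.3K27M). Mta3, which encodes a scaffold of the complex, changed most among the called and rose in both, with 13.6 and 15.4 FPKM in Cbfa2t2_KO and 14.6 and 13.7 in H3.3K27M, against 8.59 and 7.25 in H3.3WT (log2 change 0.80 ± 0.16, adjusted p = 0.0091 in Cbfa2t2_KO and log2 change 0.77 ± 0.18, adjusted p = 0.016 in H3.3K27M). No NuRD partner was called without Cbfa2t2_KO replicate 2 or, in H3.3K27M, without either H3.3WT replicate. Mta3 then had an adjusted p of 0.0659 in Cbfa2t2_KO and of 0.0574 and 0.125 in H3.3K27M, where its call was also lost without H3.3K27M replicate 2 (0.0537).

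The ISWI genes gave the only member called between the lines. Smarca5 encodes SNF2H, the ISWI ATPase of proliferating cells, and Smarca1 its paralogue SNF2L, better known in neurons. Smarca5 had 11.7 and 10.6 FPKM in H3.3K27M, against 6.79 and 3.98 in Cbfa2t2_KO, and 7.07 and 9.87 in H3.3WT. H3.3K27M lay above and Cbfa2t2_KO below the controls in every library, and the lines differed (log2 change 0.96 ± 0.24, adjusted p = 0.047), the 1 call among 45 tested members where 7.80% of all genes were called (3.12% higher and 4.68% lower). Against H3.3WT it passed in neither line (log2 change 0.37 ± 0.20, adjusted p = 0.202 for H3.3K27M, log2 change -0.59 ± 0.25, adjusted p = 0.105 for Cbfa2t2_KO). The difference between the lines remained positive in 11 alternatives, from 0.64 to 1.28, and passed in 4 of them (adjusted p from 0.029 to 0.280). It was 0.64 without Cbfa2t2_KO replicate 2 and did not pass when any 1 library of the 2 lines was left out.

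Smarca1 had 3.48 and 3.23 FPKM in H3.3K27M, against 2.804 and 1.71 in Cbfa2t2_KO, and 1.92 and 2.4 in H3.3WT. Both H3.3K27M values exceeded all others and no comparison passed (log2 change 0.47 ± 0.19, adjusted p = 0.1005 against H3.3WT, log2 change 0.44 ± 0.21, adjusted p = 0.196 against Cbfa2t2_KO). The ratio of Smarca5 to Smarca1 was 2.42 and 2.33 in Cbfa2t2_KO and 3.36 and 3.28 in H3.3K27M, against 3.68 and 4.11 in H3.3WT. Bptf, the largest subunit of the ISWI complex NURF and a reader of H3K4me3, had 9.83 and 5.93 FPKM in Cbfa2t2_KO and 8.67 and 4.05 in H3.3K27M, against 11.4 and 10.6 in H3.3WT, lowest in replicate 2 of both lines (log2 change -0.47 ± 0.22, adjusted p = 0.138 in Cbfa2t2_KO and log2 change -0.78 ± 0.29, adjusted p = 0.077 in H3.3K27M). It passed as lower in H3.3K27M after the length and GC correction. Of the 10 ISWI partner genes, none rose in either line. In Cbfa2t2_KO 2 of 9 tested fell (median -0.34), where 13.1% of all genes rose and 21.5% fell. In H3.3K27M 1 of 10 fell (median -0.22), where 8.42% of all genes rose and 17.8% fell. The largest called changes were of genes for histone-fold subunits. Chrac1 had 10.2 and 11.5 FPKM in Cbfa2t2_KO, against 18.1 and 21.4 in H3.3WT (log2 change -0.80 ± 0.16, adjusted p = 0.0076), and Pole3 had 26.7 and 30.2 FPKM in H3.3K27M, against 48.9 and 54.6 in H3.3WT (log2 change -0.84 ± 0.17, adjusted p = 0.0089). Pole3 also fell in Cbfa2t2_KO, with 33.7 and 31.0 FPKM (log2 change -0.66 ± 0.14, adjusted p = 0.0095). Chrac1 was not called in H3.3K27M (log2 change -0.39 ± 0.20, adjusted p = 0.172). With 1 library left out, 1 to 4 partners fell in Cbfa2t2_KO and Chrac1 remained called, while 0 to 2 fell in H3.3K27M and Pole3 was not called without H3.3WT replicate 2 (adjusted p = 0.0814).

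The remaining Snf2 ATPases moved in both directions. CHD1L (ALC1) relaxes chromatin when poly(ADP-ribose) activates it. Chd1l had 9.72 and 8.96 FPKM in Cbfa2t2_KO and 8.98 and 7.67 in H3.3K27M, against 5.56 and 5.12 in H3.3WT. All 4 libraries of the lines exceeded both controls, with a call in Cbfa2t2_KO (log2 change 0.71 ± 0.16, adjusted p = 0.014) that held in 8 of 11 alternatives, and none in H3.3K27M (log2 change 0.55 ± 0.19, adjusted p = 0.059), where it passed in 3 of 11. Its call in Cbfa2t2_KO was lost without either Cbfa2t2_KO replicate or H3.3WT replicate 2 (adjusted p between 0.054 and 0.063), with log2 changes between 0.65 and 0.76. Smarcal1, which encodes an enzyme that restarts stalled replication forks, had 9.92 and 9.83 FPKM in Cbfa2t2_KO and 11.8 and 9.29 in H3.3K27M, against 15.4 and 14.3 in H3.3WT, and fell in Cbfa2t2_KO (log2 change -0.54 ± 0.15, adjusted p = 0.026). It lost this call when any 1 library was left out, with log2 changes between -0.59 and -0.49 (adjusted p between 0.066 and 0.102). Smarcad1 was not called. Among all tested genes, 13.1% rose and 21.5% fell in Cbfa2t2_KO, and 8.42% rose and 17.8% fell in H3.3K27M. A list of 13 other Snf2-family genes had 11 tested in Cbfa2t2_KO and 12 in H3.3K27M. In this list 2 rose and none fell in each line, with medians of 0.031 in Cbfa2t2_KO and -0.038 in H3.3K27M. The largest called change in Cbfa2t2_KO was that of Rad54b, a recombination factor, with 2.18 and 1.85 FPKM, against 0.891 and 0.971 in H3.3WT (log2 change 0.64 ± 0.16, adjusted p = 0.019). Rad54b also rose in H3.3K27M, with 2.56 and 2.29 FPKM (log2 change 0.83 ± 0.17, adjusted p = 0.012). The largest called change in H3.3K27M was that of Hells, which supports DNA methylation, with 12.8 and 12.01 FPKM, against 4.702 and 6.499 in H3.3WT (log2 change 1.04 ± 0.20, adjusted p = 0.0083). In Cbfa2t2_KO no gene of this list rose without Cbfa2t2_KO replicate 1 or either H3.3WT replicate, where Rad54b had an adjusted p between 0.0740 and 0.0808. In H3.3K27M none rose without H3.3WT replicate 1, where Hells had an adjusted p of 0.0673.

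The BET genes Brd2 and Brd3 differed from each other in their pattern. Brd2 had 28.1 and 26.4 FPKM in Cbfa2t2_KO and 19.9 and 15.01 in H3.3K27M, against 35.2 and 36.1 in H3.3WT. The groups were apart in each comparison, and Brd2 fell in H3.3K27M (log2 change -1.003 ± 0.18, adjusted p = 0.0069), passing in 10 of 11 alternatives, the exception being without H3.3WT replicate 2 (adjusted p = 0.054). In Cbfa2t2_KO it did not pass (log2 change -0.38 ± 0.13, adjusted p = 0.0604), and the difference between H3.3K27M and Cbfa2t2_KO did not pass either (log2 change -0.63 ± 0.17, adjusted p = 0.055). Brd3 had 9.91 and 8.43 FPKM in Cbfa2t2_KO and 15.9 and 5.305 in H3.3K27M, against 8.01 and 6.17 in H3.3WT. The 2 H3.3K27M libraries lay on either side of the controls, and Brd3 had no call with both (log2 change 0.36 ± 0.39, adjusted p = 0.524) but was called higher without H3.3K27M replicate 2 (log2 change 1.07, adjusted p = 0.035).

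BRD1 is the scaffold of a histone H3 acetyltransferase complex and BRD8 a subunit of the acetyltransferase complex TIP60. Brd1 had 11.6 and 9.82 FPKM in Cbfa2t2_KO and 17.8 and 13.1 in H3.3K27M, against 14.96 and 15.4 in H3.3WT, and fell in Cbfa2t2_KO at the edge of the threshold (log2 change -0.47 ± 0.16, adjusted p = 0.0499), a call lost when any 1 library was left out (log2 changes between -0.58 and -0.36, adjusted p between 0.068 and 0.218). Brd8 was not called. Of 26 other bromodomain genes, 22 were tested in Cbfa2t2_KO and 23 in H3.3K27M. In Cbfa2t2_KO 1 rose and 5 fell (median -0.27), where 13.1% of all genes rose and 21.5% fell. In H3.3K27M none rose and 4 fell (median -0.20), where 8.42% of all genes rose and 17.8% fell. In H3.3K27M the median was -0.46 without its replicate 1, against -0.16 over all genes. It was 0.064 without its replicate 2, against -0.088 over all genes. The counts of calls also differed with the library left out. Trim66, which encodes a reader of unmodified H3K4 with acetylated H3K56, changed most among the called in both, with 3.75 and 3.59 FPKM in Cbfa2t2_KO and 2.97 and 1.51 in H3.3K27M, against 10.3 and 7.87 in H3.3WT (log2 change -1.10 ± 0.19, adjusted p = 0.004 in Cbfa2t2_KO and log2 change -1.66 ± 0.26, adjusted p = 0.0039 in H3.3K27M), and passed in all 11 alternatives of each.

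The remaining ARID genes encode DNA-binding proteins outside SWI/SNF. Arid4a, whose product binds the retinoblastoma protein, had 1.13 and 0.6996 FPKM in Cbfa2t2_KO and 1.196 and 1.09 in H3.3K27M, against 1.997 and 1.99 in H3.3WT. All 4 libraries of the lines were below the controls, and it fell in Cbfa2t2_KO (log2 change -0.66 ± 0.18, adjusted p = 0.024), while H3.3K27M did not pass (log2 change -0.48 ± 0.17, adjusted p = 0.069). The length and GC correction called it lower in both lines. Without Cbfa2t2_KO replicate 2 its change was -0.49 (adjusted p = 0.123), and without an H3.3WT replicate it did not pass (adjusted p = 0.0747 without replicate 1 and 0.0893 without replicate 2). Arid3a, Arid3b, Arid3c and Arid5b were tested at least once and not called, though the length and GC correction called Arid3b lower in Cbfa2t2_KO and the fit of all 6 libraries Arid3c lower in H3.3K27M, and Arid4b and Arid5a stayed below 1 FPKM in every library. Brd3os had 3.801 and 4.99 FPKM in Cbfa2t2_KO and 2.64 and 1.98 in H3.3K27M, against 4.05 and 5.03 in H3.3WT, and fell in H3.3K27M (log2 change -0.74 ± 0.20, adjusted p = 0.0299). This call was lost without H3.3K27M replicate 2 (log2 change -0.60, adjusted p = 0.120) and without H3.3WT replicate 1 (0.076) or 2 (0.174). Chd3os was not called and its 2 controls differed more than 2-fold. Exons of these 2 genes do not overlap those of Brd3 and Chd3 in GENCODE vM21.

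**Figure D5:**
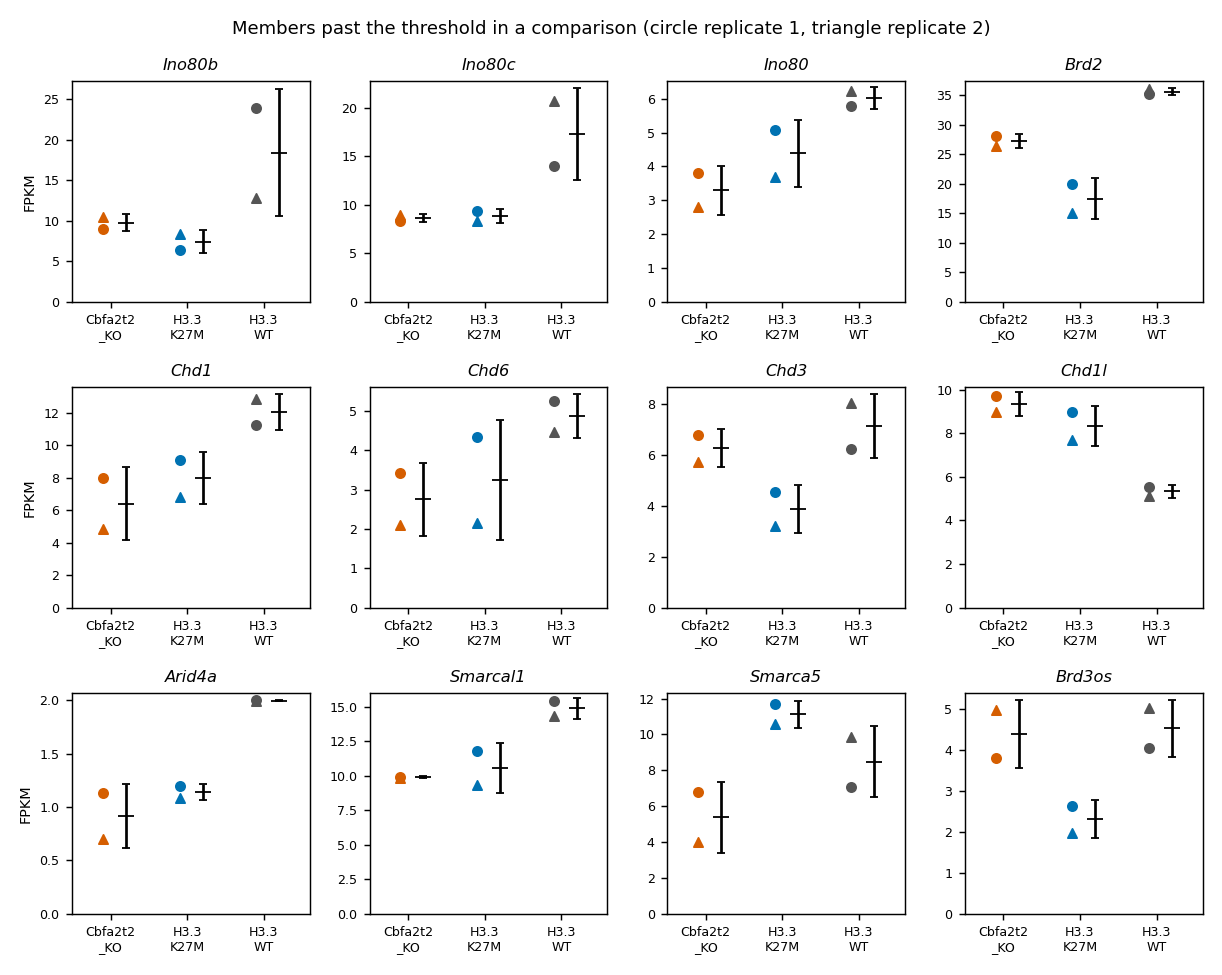
FPKM in each library (points), with mean and SD beside them, for 12 of the 14 members past the threshold in at least 1 comparison. Cbfa2t2_KO and H3.3K27M lie below H3.3WT for Ino80b, Ino80c, Brd2, Chd1, Arid4a and Smarcal1 and above it for Chd1l, and Smarca5 is on opposite sides of H3.3WT in the 2 lines.

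Counted over the members, the shift depended on the libraries. The median log2 change of the 44 tested members was -0.19 in Cbfa2t2_KO, against -0.11 over 11626 tested genes, and -0.31 in H3.3K27M, against -0.12 over 11623. The groups did not overlap for 29 of 44 members in each comparison, 23 lower and 6 higher in Cbfa2t2_KO and 20 lower and 9 higher in H3.3K27M, where 70.4% (42.0% lower and 28.5% higher) and 66.3% (41.3% lower and 25.1% higher) of all genes did not overlap. Without replicate 1 of the line, the medians were -0.31 in Cbfa2t2_KO, against -0.15 over all genes, and -0.58 in H3.3K27M, against -0.16. Without replicate 2 of the line, they were -0.15 in Cbfa2t2_KO, against -0.075 over all genes, and -0.14 in H3.3K27M, against -0.088. After correction for length and GC content they were -0.20 in Cbfa2t2_KO, against -0.11, and -0.18 in H3.3K27M, against -0.13. The distance of the members from all genes was thus smaller after the correction in H3.3K27M and not in Cbfa2t2_KO.

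The counts of calls rested on single libraries. In both lines more members were called lower without replicate 1 of the line than without its replicate 2 or either H3.3WT replicate. Such fits leave 1 library in a group, and the shares of called members given above are those of all libraries only. In Cbfa2t2_KO the median log2 change of the members was -0.28 without H3.3WT replicate 1 and -0.30 without replicate 2. Over all genes it was -0.12 and -0.069. In H3.3K27M the medians of the members were -0.31 and -0.33, against -0.14 and -0.091 over all genes. Median-of-ratios scaling moved the median of all genes to -0.0027 in Cbfa2t2_KO and 0.0053 in H3.3K27M and gave 3 members higher and 6 lower in Cbfa2t2_KO and 3 higher and 4 lower in H3.3K27M. With that scaling 50.6% of all calls in Cbfa2t2_KO and 49.3% in H3.3K27M were higher, against 37.9% and 32.1% with the values as deposited. Between the lines, the median was -0.016 over 45 members and -0.019 over all genes, and the groups did not overlap for 15 members, 7 higher and 8 lower in H3.3K27M, where 58.2% of all genes did not overlap (26.7% higher and 31.5% lower). At an unadjusted p below 0.05, 3 members with Smarca5 among them were higher and 6 lower in H3.3K27M (6.67% and 13.3% of 45), where 12.4% and 16.4% of all genes were. Smarcc2 (log2 change -0.82 ± 0.22, adjusted p = 0.056) and Brd2 (log2 change -0.63 ± 0.17, adjusted p = 0.055) were lower in both H3.3K27M libraries than in both of Cbfa2t2_KO and each passed in 2 of 11 alternatives.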

How the data were processed

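Poly(A) RNA-seq was measured in 6 libraries of NE-4C lines, 2 per group. The authors deposited 2 tables of FPKM per gene, 1 for each line with the same H3.3WT columns (identical in all 14082 shared genes), in which every gene reaches 0.5 FPKM in at least 1 library. Trim Galore, HISAT2, StringTie, DESeq and the build GRCm38 are named, without versions, per the submitters' processing notes; the sources used here do not state strand. The tables hold no counts, so depth is unknown and no counting interval can be given. The H3.3K27M columns carry only the letter M, which was matched to that group by its labels.

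Genes whose mean over a fit's libraries reached 1 FPKM were tested with limma 3.58.1 (R 4.3.3) on log2(FPKM + 1), on which changes of low genes come out too small, with eBayes trend and Benjamini-Hochberg adjustment over all tested genes at 0.05. The fit of a line against H3.3WT used those 4 libraries; the fit of H3.3K27M against Cbfa2t2_KO used all 6. The 7 alternatives and the leaving out of each library are described at the end; the correction fits natural splines (4 df each) of log2 transcript length and GC content in each library. Lengths, overlaps and coordinates are from GENCODE vM21 (GRCm38), where 14652 of 14667 IDs matched. Promoters are from RefSeq GRCm38.p6, where 35 of 48 members had a window.

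Values per library are printed for the large ATPase and scaffold paralogues and for the 8 members with the largest change among those called in each comparison. Brd1 and Smarcal1, the remaining called members, and the npBAF and nBAF genes were added. Of each partner list the called gene with the largest change is named. Members, roles and lists were chosen with earlier results of these data known. The counts cover all members; the values of 1 member are not reported here.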

Additional observations from a re-analysis of the deposited data

How the results depend on the processing

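No result reversed its direction past the threshold under any alternative. No paired analysis was possible because the labels give no replicate numbers that pair libraries between groups. In Cbfa2t2_KO against H3.3WT, 1 member was higher and 9 lower. There, 3 members were higher with median-of-ratios scaling and 3 with the length and GC correction, and 5 were lower with a minimum mean of 5 FPKM and 5 in the fit of all 6 libraries. In H3.3K27M against H3.3WT, 0 were higher and 5 lower. There, 3 were higher with scaling, 3 with the correction and 1 in the fit of all 6 libraries, which also gave 8 lower. In H3.3K27M against Cbfa2t2_KO, 1 member was higher and 0 lower. There, 0 were higher with a pseudocount of 0.1, 0 without the FPKM filter, 3 with the correction and 0 in the fit of the 4 libraries of both lines, where 554 of all genes were called, against 905. Lower members numbered 1 with a minimum mean of 5 FPKM and 1 with scaling. The cause of these moves was not tested.

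Leaving out 1 library at a time, the calls over all genes ran from 1915 (without Cbfa2t2_KO replicate 2) to 3038 in Cbfa2t2_KO, against 4028 with all libraries. They ran from 1007 (without H3.3WT replicate 2) to 2790 in H3.3K27M, against 3049, and from 29 (without Cbfa2t2_KO replicate 2) to 786 between the lines, against 905. Members higher ran from 0 to 2, 0 to 1 and 0 to 0, and members lower from 0 to 8, 1 to 14 and 0 to 2, in the same order. A group left with 1 library is assumed to vary like the others in such a fit.

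Leaving out 1 library and correcting for length and GC content together was added after seeing the data. For Cbfa2t2_KO it gave 2904 and 2390 calls over all genes without its replicate 1 and 2, and 4499 and 3973 without H3.3WT replicate 1 and 2. For H3.3K27M the same counts were 2059, 1534, 2651 and 1988. Counts of called members again differed with the library left out. Among alternative values of the named members, 63 lost and 12 gained a call in Cbfa2t2_KO, 24 lost and 27 gained one in H3.3K27M, and 7 lost and 6 gained one between the lines. With FPKM and no counts, the precision of low members such as Arid4b, Arid5a and Smarcd3 is unknown.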
